A study of Mus musculus with 4 samples.

Results

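The semaphorins, plexins and neuropilins are a family of guidance cues and their receptors, and 29 of 20665 autosomal protein-coding genes belong to it here. They were taken by symbol from RefSeq gene spans of build GRCm38.p6, whose chromosomes have the coordinates of mm10, and comprise 20 semaphorin, 7 plexin and 2 neuropilin genes. The data are peaks from chromatin immunoprecipitation followed by sequencing (ChIP-seq) in embryonic stem cells from 129S4/SvJae mice, which overexpress H1foo fused to GFP. The 2 H1foo libraries were made with an in-house rabbit polyclonal antibody against H1foo, the linker histone of the oocyte. The 2 AE4 libraries were made with the mouse monoclonal antibody AE4, used for the somatic linker histones. All 4 libraries come from overexpressing cells, so neither list shows chromatin without added H1foo. Each antibody has 1 deposited peak list, with 97617 H1foo and 47206 AE4 peaks on autosomes. There are no values per library, so no replicate error and no test could be given, and the read depth is unknown. Counts of the 2 lists therefore describe where peaks were called and not the amount of either histone. Whether AE4 binds the overexpressed protein as well was not stated.

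Semaphorins are recognised by their sema domain and steer growing axons, blood vessels and immune cells. Class 3 members are secreted, classes 4, 5 and 6 span the membrane, and class 7 is held at the surface by a lipid anchor. Plexins are the signalling receptors, with a cytoplasmic domain that acts on small GTPases of the Ras family. Neuropilins are co-receptors that bind most class 3 semaphorins, hand the signal to plexins of the A type and also bind vascular growth factors. Most of these genes are known for roles in developing neurons and vessels rather than in stem cells. Linker histones sit on the nucleosome where its DNA goes in and out and help to compact chromatin.

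Peaks were unevenly spread over the family, with 10 or more H1foo peaks at 11 genes, 4 to 9 at 3, 1 to 3 at 5 and none at 10. A peak was assigned to a gene when at least 1 bp lay in the gene or within 2 kb of either end. In total 206 H1foo and 68 AE4 peaks were assigned to members. An H1foo peak was present at 19 of the 29 members (65.5%), and 62.3% of the other 20636 genes had one. An AE4 peak was present at 17 of the 29 (58.6%), and 48.4% of other genes had one. Peaks of both antibodies were present at 17 members, with 44.4% among other genes. H1foo without AE4 was seen at 2 members, Plxna2 and Sema7a (17.9% of other genes), and AE4 without H1foo at 0 (3.98% of other genes). The remaining 10 members had no peak of either antibody (34.5%). This share was near that of all other genes (33.7%) and above the 18.6% of other genes of the same length and gene density classes, described below. In those classes 60.2% of other genes had peaks of both antibodies, against 58.6% of members. H1foo without AE4 was seen at 14.7% of them and AE4 without H1foo at 6.48%.

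Members differ from most genes in length, with a median of 46.3 kb against 17.4 kb for other genes, and a longer gene can collect more peaks. The members were therefore also set against other genes of the same class, formed from deciles of gene length and 5 classes of local gene density. Local gene density was the number of other protein-coding genes whose centre lay within 500 kb of the gene's centre. Other genes in the members' classes had an H1foo peak in 74.9% and an AE4 peak in 66.7%. The members' shares were thus 9.38 points lower for H1foo and 8.04 points lower for AE4 in this setting. They were 3.23 and 10.2 points higher than the shares of all other genes without classes. They were also higher, by 7.13 and 7.68 points within the same classes, when peaks were limited to a score of 100 or more. Then 14 members had an H1foo peak (34.5% of other genes) and 8 an AE4 peak (14.5% of other genes). The direction of this comparison hence depends on the setting. The exact binomial 95% interval of a share of 19 in 29, 45.7 to 82.1%, holds both background values for H1foo. It covers counting error only and takes the 29 genes as independent, though some members lie near each other.

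The number of peaks was compared in the same way. Other genes of the same classes would carry 165.1 H1foo and 80.5 AE4 peaks over 29 genes. The members' 206 H1foo peaks were 1.25 times and their 68 AE4 peaks 0.845 times these values. Leaving out 1 member at a time gave 1.14 to 1.301 times for H1foo and 0.769 to 0.879 times for AE4, the lowest in both cases without Sema5b. Other settings moved both values further. With scores of 100 or more they were 1.81 times for H1foo and 1.22 times for AE4, with length tertiles by density deciles 1.55 and 1.064 times, and without classes 1.93 and 1.397 times. The AE4 count was thus below or above that of other genes depending on the setting. Members with 10 or more H1foo peaks numbered 11 of 29, against 10.2% of other genes and 18.7% of those in the same classes, a limit set after the values were seen. For AE4 only Sema5b reached 10 peaks, where 2.87% of other genes and 5.48% of those in the same classes did. Members had 3.03 H1foo peaks for each AE4 peak, against 2.05 in other genes of the same classes and 2.19 in all other genes. This ratio lay between 2.82 and 3.2 with any 1 member left out, and was 5.79 with scores of 100 or more. At that limit members had 81 H1foo and 14 AE4 peaks, and other genes had 20163 and 5009. The ratio of other genes was thus also above 2.19 there, and 5.79 is not to be set against 2.05 or 2.19.

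**Figure D1:**
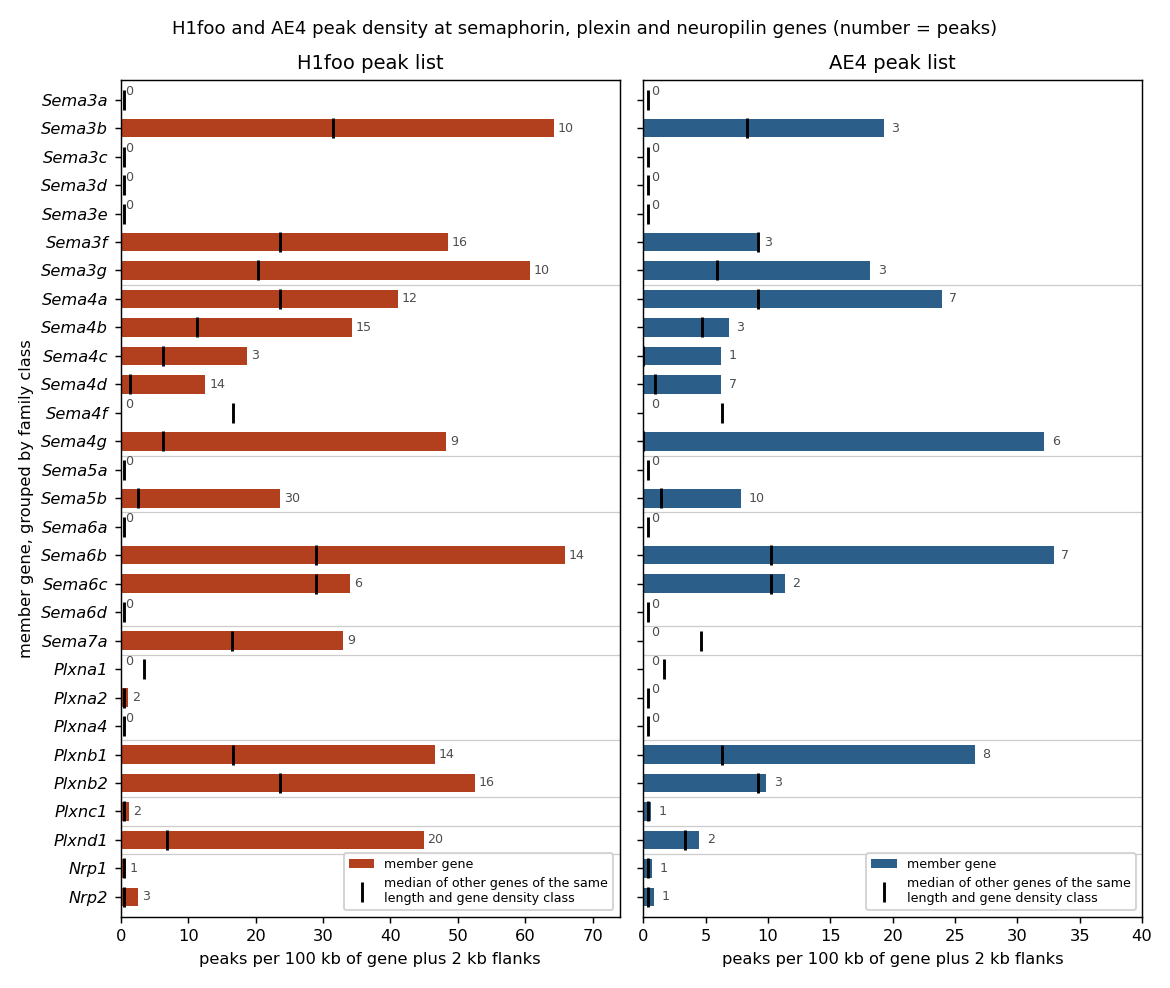
Horizontal bars give peaks per 100 kb of gene plus 2 kb flanks for each of the 29 members, grouped by family class, with H1foo on the left and AE4 on the right and the number of peaks beside each bar. Black ticks mark the median of other genes of the same length and gene density class; for H1foo, the 19 members with a peak lie above their tick and the 10 without lie below it, and for AE4 16 lie above.

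The secreted class 3 semaphorins were divided into 4 genes without peaks and 3 with many. Sema3a, Sema3c, Sema3d and Sema3e, the cues of the class that lie in long genes, had 0 H1foo and 0 AE4 peaks. Sema3b, Sema3f and Sema3g had 10, 16 and 10 H1foo peaks and 3, 3 and 3 AE4 peaks. Sema3a, the classic repellent of sensory axons, spans 478.7 kb of chromosome 5, while Sema3b, the shortest of all members, spans 11.6 kb of chromosome 9. Sema3b carried 64.2 H1foo and 19.3 AE4 peaks per 100 kb. In its class the median of other genes was 31.5 for H1foo and 8.34 for AE4, and 4.72% of them exceeded Sema3b for H1foo. Sema3g reached 60.7 H1foo and 18.2 AE4 peaks per 100 kb against class medians of 20.4 and 5.89, and 1.32% of other genes in its class were higher for H1foo. Sema3f had 48.5 H1foo peaks per 100 kb against a class median of 23.6. Its AE4 value of 9.10 was next to the class median of 9.17. Sema3b and Sema3f stand 72.3 kb apart and share a region, so they are not independent of each other.

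The 4 class 3 genes without peaks lie within 5347 kb of chromosome 5, at chr5:12383161-17730268. This whole span held 12 H1foo and 26 AE4 peaks, or 0.224 H1foo and 0.486 AE4 peaks per 100 kb. AE4 peaks thus outnumbered H1foo peaks there, but how often this holds in other spans is not given here. Other genes of the class that these 4 belong to, long and with few neighbours, had an H1foo peak in 65.9% and an AE4 peak in 63.6%. Their median was 0.511 H1foo and 0.373 AE4 peaks per 100 kb. These medians are per gene with its flanks, so they are not the same measure as the density of the whole span.

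Class 4 semaphorins, membrane proteins with roles in immune cells and in plexin B signalling, had peaks of both antibodies at 5 of 6 members. Together the 6 genes had 53 H1foo and 24 AE4 peaks. Sema4b, with 15 H1foo and 3 AE4 peaks, and Sema4d, with 14 and 7, had the most H1foo peaks. Sema4d, known as CD100 on lymphocytes and a ligand of plexin B1, is 108.2 kb long with 5 neighbours. Its 12.5 H1foo and 6.24 AE4 peaks per 100 kb were above 90.6% and 93.02% of other genes in its class. Sema4g had 48.2 H1foo and 32.2 AE4 peaks per 100 kb. Most other genes in its class had no AE4 peak at all, and their AE4 median was 0. Sema4a, with 12 H1foo and 7 AE4 peaks, held the highest-scoring H1foo peak of the family, at chr3:88454472-88457705 with a score of 572.9. Scores are the authors' values and rank peaks within 1 list. That peak overlapped the highest-scoring AE4 peak of the same gene, at chr3:88456385-88457623 with a score of 157.5. Sema4b held the next H1foo score, 532.5 at chr7:80205580-80208553, and there no AE4 peak overlapped. Sema4c had 3 H1foo peaks and 1 AE4 peak.

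Sema4f, the sixth class 4 member, had no peak although its surroundings are rich in genes. It is 27.9 kb long and has 26 neighbours, and 82.3% of other genes in its class had an H1foo peak and 75.4% an AE4 peak. Its nearest H1foo peak lay 179.7 kb and its nearest AE4 peak 562.2 kb away. The 1 Mb around Sema4f held 6 H1foo and 0 AE4 peaks. Other genes whose number of neighbours was within 3 of that had a median of 118 H1foo and 50 AE4 peaks in the same window, and 12.7% of them had as few for H1foo and 2.65% as few for AE4.

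Class 5 and class 6 each held semaphorins with and without peaks. Sema5b, which carries thrombospondin repeats beside its sema domain, had 30 H1foo and 10 AE4 peaks over 123.1 kb, the most of any member for both antibodies. Its 23.6 H1foo and 7.87 AE4 peaks per 100 kb stood against class medians of 2.52 and 1.395. Its paralog Sema5a, 451.5 kb long with 1 neighbour, had 0 and 0. In class 6, Sema6b had 14 H1foo and 7 AE4 peaks over 17.3 kb. Its 65.9 H1foo and 32.9 AE4 peaks per 100 kb made it the densest gene of the family for either antibody. Sema6c had 6 H1foo and 2 AE4 peaks and the highest AE4 score of the family, 362.5 at chr3:95168168-95170943. It overlapped a pair of H1foo peaks, chr3:95168165-95169055 with a score of 149.02 and chr3:95169203-95171475 with a score of 343.9. Sema6a and Sema6d had 0 peaks of either antibody. Sema6d, at 577.8 kb, is the longest member and has 0 neighbours.

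Sema7a, the only class 7 member and a lipid-anchored semaphorin that acts through integrins and plexin C1, had 9 H1foo peaks and 0 AE4 peaks. These H1foo peaks ran, by their centres, from 1.86 kb before the gene to 20.7 kb inside it. Their scores were between 63.05 and 192.9, with a median of 86.4. The nearest AE4 peak lay 9.06 kb from the gene, and the 100 kb on either side together held 28 H1foo and 10 AE4 peaks. In its class 65.9% of other genes had an AE4 peak, with a median of 4.62 per 100 kb.

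Among the receptors, the B and D plexins had many peaks and the A plexins almost none. Plxnb1, the receptor of Sema4d, had 14 H1foo and 8 AE4 peaks, or 46.6 and 26.6 per 100 kb against class medians of 16.6 and 6.34. Plxnb2 had 16 H1foo and 3 AE4 peaks, or 52.5 and 9.84 per 100 kb against class medians of 23.6 and 9.17. Plxnd1, the receptor of Sema3e in endothelial cells, had 20 H1foo and 2 AE4 peaks, a ratio of 10, the highest among the 17 members with both. Its 44.9 H1foo peaks per 100 kb were above 96.1% of other genes in its class, while its 4.49 AE4 peaks were above 58.2%. Plxna1 and Plxna4 had 0 and 0, and Plxna2 had 2 H1foo peaks and 0 AE4 peaks over 197.1 kb. Plxna1, Plxna4, Plxnd1 and Sema4f all lie on chromosome 6, so peak-rich and peak-free members shared a chromosome. Plxnc1, the receptor of Sema7a, had 2 H1foo peaks and 1 AE4 peak over 154.2 kb.

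The neuropilin genes, both over 100 kb long with at most 5 neighbours, had few peaks. Nrp1 had 1 H1foo and 1 AE4 peak, and Nrp2 had 3 H1foo peaks and 1 AE4 peak. None of these peaks overlapped the other list. The H1foo peak of Nrp1, chr8:128358135-128358965 with a score of 84.4, lay over the gene's 5′ end. The 3 of Nrp2 lay 49.8, 70.6 and 91.1 kb inside the gene. Per 100 kb the values were 0.663 H1foo and 0.663 AE4 peaks for Nrp1 and 2.51 H1foo and 0.838 AE4 peaks for Nrp2, against class medians of 0.511 for H1foo and 0.373 for AE4.

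The presence of peaks in members went together with gene length and surroundings. No member lies between 50 and 100 kb, so the family was described on either side of that gap, a choice made after the values were seen. Of the 14 members of 100 kb or more, 6 had an H1foo peak (42.9%) and 5 an AE4 peak (35.7%), where 74.6% and 70.7% of other genes of that length did. Of the 15 members under 50 kb, 13 had an H1foo peak (86.7%) and 12 an AE4 peak (80.0%), against 58.6% and 42.6% of other genes of that length. The median density of these short members was 44.9 H1foo and 9.84 AE4 peaks per 100 kb, against 5.95 H1foo and 0 AE4 peaks in other short genes. Of the short members, 14 have 10 or more neighbours, and 13 of these had an H1foo and 12 an AE4 peak. Other short genes with 10 or more neighbours had an H1foo peak in 62.9% and an AE4 peak in 47.15%. The medians per 100 kb were then 45.7 H1foo and 10.6 AE4 peaks, against 9.84 and 0. These other short genes were not matched in length below the cut. In the classes of the 15 short members, 68.8 to 91.8% of other genes had an H1foo peak and 48.9 to 80.9% an AE4 peak. The members' shares of 86.7% and 80.0% lay inside these ranges. Class medians were 3.43 to 31.5 H1foo and 0 to 10.3 AE4 peaks per 100 kb. The long members also have few neighbours, with Sema5b the exception at 12. Other genes of 100 kb or more with 5 or fewer neighbours had an H1foo peak in 63.001% and an AE4 peak in 61.04%, and 5 and 4 of the 13 such members did.

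**Figure D2:**
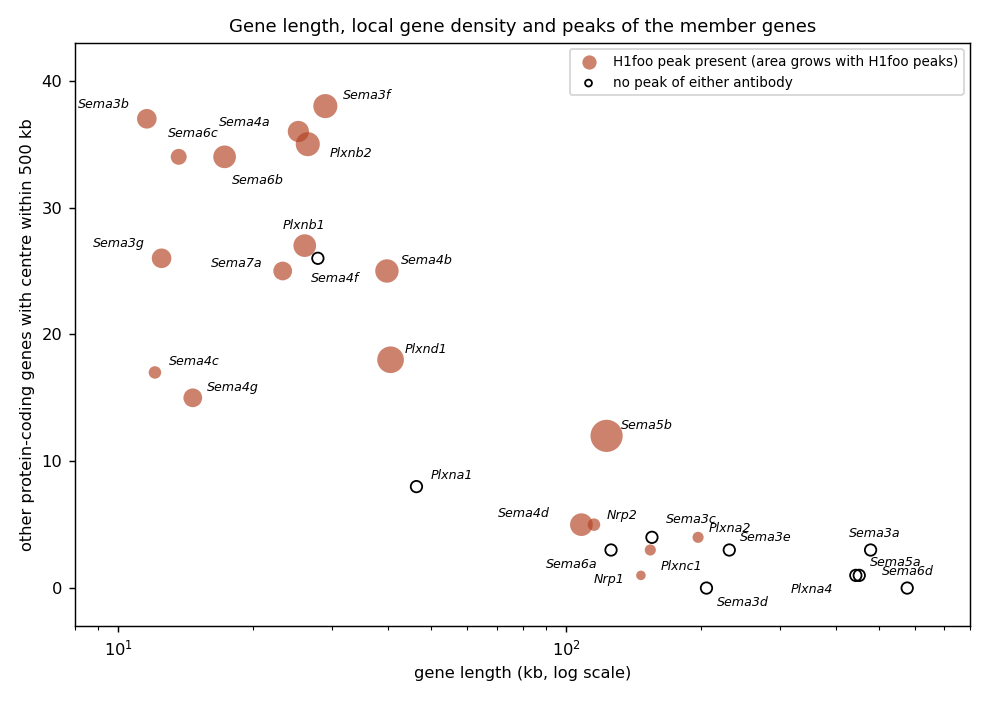
Each of the 29 members is placed by gene length in kb on a log scale and by the number of other protein-coding genes within 500 kb; filled circles have an H1foo peak, with an area that grows with the number of H1foo peaks, and open circles have no peak of either antibody. Of the 10 open circles, 8 are genes of 100 kb or more, and Plxna1 and Sema4f are the open circles among shorter genes.

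The members without peaks lay in regions with few or no peaks. Of the 10, 9 had no peak of either antibody in the 100 kb on each side, and Sema3a had 1 H1foo and 1 AE4 peak there. Among other genes without a peak the flanks were empty at 27.5%, and among those of 100 kb or more at 38.4%. The 1 Mb around the 10 members held 0 to 6 H1foo peaks and 0 to 3 AE4 peaks. Around the 19 members with a peak it held 9 to 301 H1foo and 2 to 159 AE4 peaks, with medians of 117 and 48. The ranges did not overlap for H1foo and overlapped for AE4. These counts include the members' own peaks, so the ranges are not independent of the call. The ranges for other genes with and without a peak are not given here, so this separation has no background.

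Each member was also set against its own surroundings. H1foo density in the gene and its 2 kb flanks was above that of the next 100 kb on both sides at 16 of 29 members, where 42.1% of other genes and 45.4% of those in the same classes had this. For AE4 it was 10 of 29, against 33.5% and 41.6%. Plxnd1 had 44.9 H1foo peaks per 100 kb inside and 9.0 in the flanks, and Sema3g had 60.7 inside and 12.5 in the flanks. For AE4, Plxnd1 had 4.49 inside and 5.5 in the flanks. Sema4g was higher inside for either antibody, at 48.2 H1foo and 32.2 AE4 peaks per 100 kb inside and 15.0 and 5.0 in the flanks. Sema4c, Plxna2 and Plxnc1 had fewer H1foo peaks per 100 kb inside than in the flanks.

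The share of peak centres more than 2 kb inside the gene was close to that in other genes of the same classes. Of the 206 H1foo peaks, 161 had their centre in the gene and more than 2 kb from either end, 41 within 2 kb of an end, and 4 outside. For AE4 these numbers were 58, 10 and 0. The part more than 2 kb inside was thus 78.2% for H1foo, against 81.2% in other genes of the same classes and 71.2% in all other genes. For AE4 it was 85.3%, against 86.6% and 77.3%. A peak within 2 kb of either end was present at 16 members for H1foo (47.2% of other genes) and at 8 for AE4 (25.4% of other genes). Strand was known for 24 members. An H1foo peak lay within 2 kb of the 5′ end of 12 of them, against 33.4% of other genes and 31.2% of those in the same classes. At the 3′ end it was 10 of 24, against 36.9% and 35.1%. An AE4 peak lay at the 5′ end of 3 of 24 (11.5% of other genes) and at the 3′ end of 5 of 24 (20.5% of other genes). The share of members with a peak at the 3′ end was thus 41.7% for H1foo and 20.8% for AE4, not below other genes. Some end peaks also touched the 2 kb flank of a neighbour gene, as at Sema3b with Lsmem2, Plxnb1 with Ccdc51 and Sema4b with Cib1. Such sharing held for 18 of the 206 H1foo and 4 of the 68 AE4 peaks.

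Along the gene body, a smaller share of peak centres lay in the last part of members than of other genes in the same classes. With each gene cut into 5 equal parts from its 5′ end, the last part held 24 of 154 H1foo peak centres (15.6%) and 7 of 58 AE4 peak centres (12.1%). In other genes of the same classes the last part held 26.0% of H1foo and 25.4% of AE4 peak centres. The middle part held 26.6% of the members' H1foo and 25.9% of their AE4 peak centres, against 17.6% and 18.3%. Without Sema5b, which holds 29 of the H1foo centres, the last part held 16.0% for H1foo and 12.5% for AE4. The members' first part held 24.1% of AE4 centres, and 18.8% without Sema5b, against 17.04% in other genes of the same classes. With any 1 member left out, the last part held 14.8 to 16.1% of H1foo and 9.09 to 13.7% of AE4 centres. Peaks of 1 gene share their source, so these shares are descriptions.

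**Figure D3:**
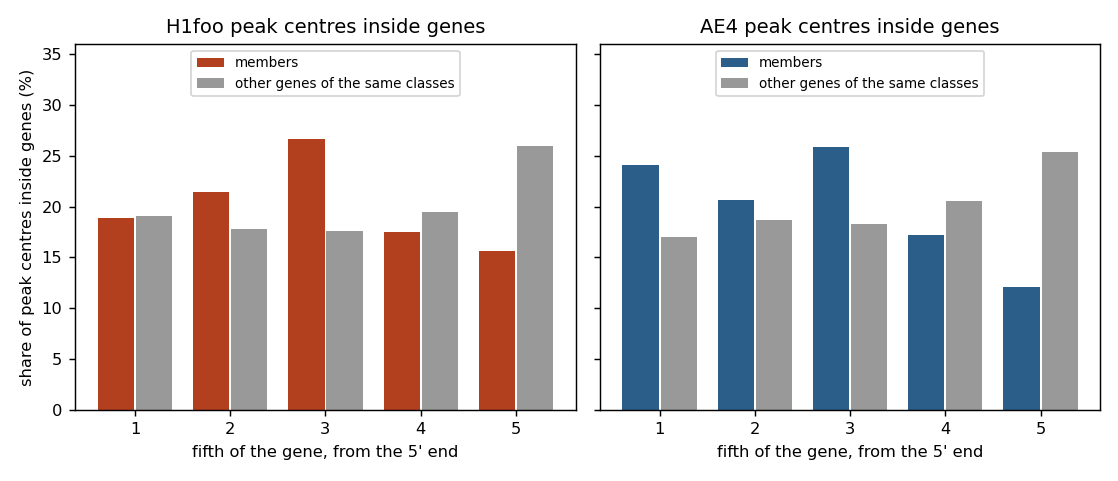
Bars show the share of peak centres inside genes, in percent, that fall in each of 5 equal parts of the gene from its 5′ end, with members in colour and other genes of the same classes in grey; H1foo is on the left and AE4 on the right. In the last part members lie at 15.6% for H1foo and 12.1% for AE4, below the other genes at 26.0% and 25.4%.

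Single genes differed in where their peaks lay. Of the 16 members of known strand with an H1foo centre in the gene, all had a smaller share in the last part than the 26.0% of other genes in the same classes, with 21.1 to 23.1% at Sema4a, Plxnd1, Sema4b, Sema4d and Plxnb2. For AE4, 12 of 15 were below the 25.4% of other genes, 11 of them with 0. The exceptions for AE4 were Plxnb2 with 2 of 3 centres in the last part (66.7%), Sema4g with 2 of 6 (33.3%) and Plxnb1 with 2 of 7 (28.6%). The 26.0% and 25.4% describe other genes as a set, and how many other single genes fall below them is not given here. A gene with few centres can easily have 0 in its last part. For H1foo 5 members had 0 there, among them Sema4c with 1 centre and Plxnc1 with 2. These counts of members therefore have no background. In Sema5b the H1foo peaks in the gene ran from 9.89 to 111.4 kb from the 5′ end, and 5 of its 10 AE4 peaks lay in the first part. In Plxnd1 19 H1foo peaks were spread from 3.29 to 37.1 kb, and the 2 AE4 peaks lay at 21.5 and 31.9 kb. In Plxnb2 the AE4 peaks began at 16.4 kb, while H1foo peaks began at 3.16 kb.

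**Figure D4:**
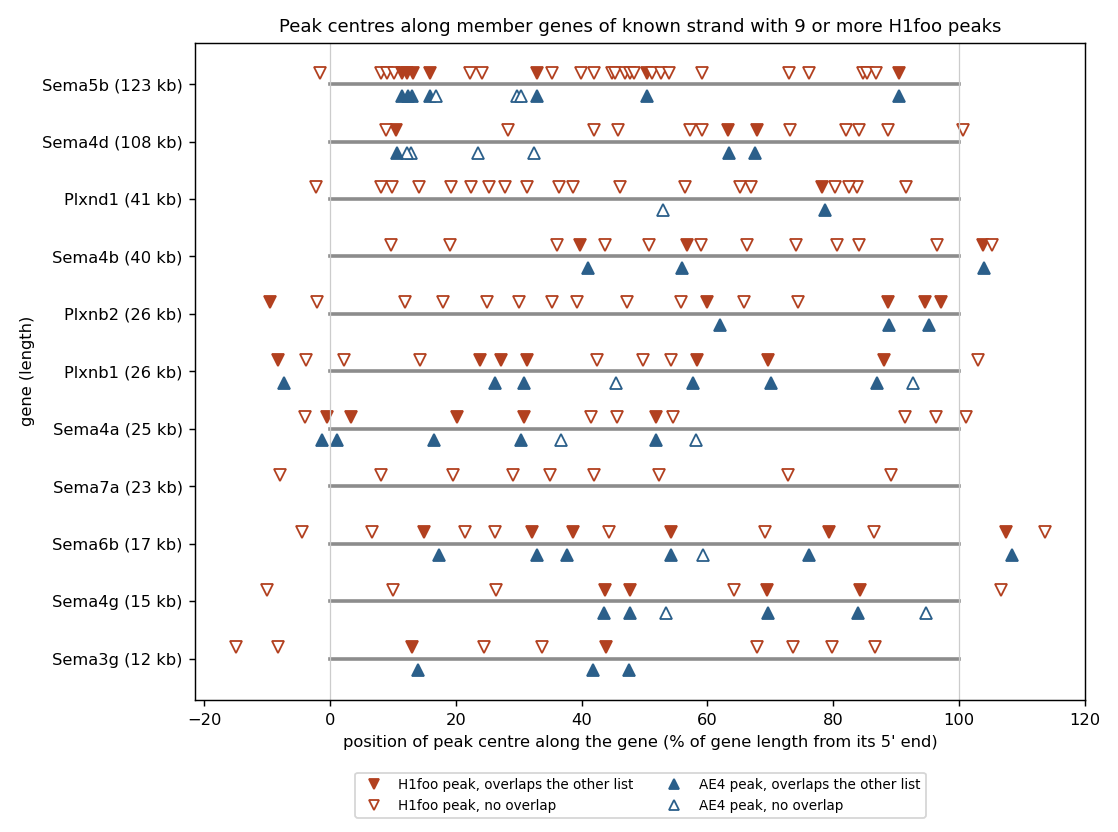
Peak centres are drawn along the 11 members of known strand with 9 or more H1foo peaks, as percent of gene length from the 5′ end, with H1foo triangles above and AE4 triangles below each gene line; filled triangles overlap a peak of the other list. Sema7a has 9 H1foo peaks and no AE4 peak, and Plxnd1 has 20 H1foo and 2 AE4 peaks.

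AE4 peaks of the family mostly coincided with H1foo peaks. Of the members' AE4 peaks, 48 of 68 (70.6%) overlapped an H1foo peak by at least 1 bp, against 56.9% of AE4 peaks at other genes. Of the members' H1foo peaks, 51 of 206 (24.8%) overlapped an AE4 peak, against 25.6% at other genes. Plxnb1 shared 7 of its 14 H1foo peaks and 6 of its 8 AE4 peaks, whereas Plxnd1 shared 1 of 20 and 1 of 2. Overlap rises with the number and width of peaks, and the members' peaks were wider in the median. The shares at other genes were not matched for class or number of peaks. The median width was 655.5 bp for their H1foo peaks, against 575 bp at other genes, and 512.5 bp for their AE4 peaks, against 476 bp. The median score was 85.1 for H1foo, against 75.0 at other genes, and 71.0 for AE4, against 65.1. Scores of 100 or more were held by 39.3% of the members' H1foo peaks, against 28.95% at other genes, and by 20.6% of their AE4 peaks, against 15.4%.

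Promoter sequence was examined in windows of 300 bases from RefSeq (GRCm38.p6), which run from 250 bases before an annotated start to 50 after it. The table holds 35 windows for 24 members. An H1foo peak lay over a window of 5 of the 24 genes (15.3% of other genes), and an AE4 peak over a window of 3 (2.81% of other genes). The genes with H1foo were Sema4a, Sema6c, Nrp1, Plxnb2 and Sema6b, and those with AE4 were Sema4a, Sema6c and Sema6b. By window, 3 of 35 were under an AE4 peak (2.48% of other genes' windows) and 7 of 35 under an H1foo peak (14.3% of other genes' windows). Other genes had 20050 windows for 16433 genes, fewer per gene than members, which bears on the shares by gene. Of the 7 windows under an H1foo peak, 4 belong to starts 3.92 to 8.07 kb inside the gene rather than to its outer start. The 7 windows held a median of 7 CG dinucleotides, and the 28 without a peak held 23. In other genes the medians were 11 with and 14 without an H1foo peak. The windows of the 3 genes with the highest-scoring peak over them are printed up to the start, because peaks bear on them directly, with CG in capitals. The outer window of Plxnb2, which had no peak, was added after the values were seen, for contrast with the inner one. The inner windows are chr3:88455762-88456011 on the minus strand for Sema4a, chr3:95164089-95164338 on the plus strand for Sema6c and chr15:89173952-89174201 on the minus strand for Plxnb2. The outer Plxnb2 window is chr15:89180789-89181038 on the minus strand. Its start lies 1.23 kb inside the gene's 5′ end. An H1foo peak did lie near that end, at chr15:89182175-89182924, outside the window.
Sema4a, inner start: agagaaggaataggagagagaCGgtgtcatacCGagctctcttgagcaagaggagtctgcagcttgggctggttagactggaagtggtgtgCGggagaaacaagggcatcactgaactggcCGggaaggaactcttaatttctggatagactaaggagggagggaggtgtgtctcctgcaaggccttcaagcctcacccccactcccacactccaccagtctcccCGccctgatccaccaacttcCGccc
Sema6c, inner start: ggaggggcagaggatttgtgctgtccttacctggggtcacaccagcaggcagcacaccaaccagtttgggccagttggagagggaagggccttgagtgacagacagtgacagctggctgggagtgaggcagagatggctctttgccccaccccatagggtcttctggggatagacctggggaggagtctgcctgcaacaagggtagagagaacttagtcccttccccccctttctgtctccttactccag
Plxnb2, inner start: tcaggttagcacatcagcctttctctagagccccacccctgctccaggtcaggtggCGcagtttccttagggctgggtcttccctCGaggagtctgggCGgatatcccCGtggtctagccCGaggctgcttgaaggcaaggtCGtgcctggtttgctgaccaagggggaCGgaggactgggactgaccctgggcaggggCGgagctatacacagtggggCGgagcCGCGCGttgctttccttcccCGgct
Plxnb2, outer start: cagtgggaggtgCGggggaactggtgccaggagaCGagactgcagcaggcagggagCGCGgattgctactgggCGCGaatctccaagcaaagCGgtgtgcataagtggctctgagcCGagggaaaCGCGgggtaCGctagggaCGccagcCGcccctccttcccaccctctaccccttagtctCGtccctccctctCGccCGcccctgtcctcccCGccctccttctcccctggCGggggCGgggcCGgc
In these 250 bases the Sema4a window held 6 CG dinucleotides and the Sema6c window 0. The Plxnb2 windows held 13 at the inner start under the H1foo peak and 20 at the outer start without one. The H1foo peak over the inner Plxnb2 start had a score of 144.9, and the one over the inner Sema6c start 200.4. A gene's windows can overlap exons of its other transcripts, which was not tested.

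The partners of the family, taken as a list of 40 genes for signalling proteins, other receptors and ligands, were each counted in the same way. An H1foo peak was present at 30 of 40 (75.0%, against 74.3% in other genes of their classes) and an AE4 peak at 26 of 40 (against 63.3%). They had 268 H1foo and 138 AE4 peaks, where other genes of their classes would have 243.8 and 115.1. The ratio of H1foo to AE4 peaks was 1.94. The 3 with the most H1foo peaks were Mical3, an actin-oxidising enzyme of the MICAL family, with 69 H1foo and 36 AE4 peaks, Farp1, an exchange factor for small GTPases, with 28 and 14, and the kinase gene Fyn with 19 and 6. H1foo without AE4 was seen at 10 of 40 partners (against 16.4% in other genes of their classes and 17.9% of all genes outside the family). AE4 without H1foo was seen at 6 of 40 (against 5.38% and 3.98%), and neither at 4 of 40 (against 20.3% and 33.7%).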

How the data were processed

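Reads of 2 H1foo and 2 AE4 ChIP-seq libraries had been aligned with Bowtie 1.1.2 to mm10, per the submitters' processing notes. Peaks were called with MACS, per the file headers; the sources used here give no version or control library and not how the 2 libraries were used. The authors deposited 1 peak list per antibody with a score per peak, at least 50, on a scale the files do not name. It was used for order and thresholds inside 1 list.

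Starts were counted from 1, and 1 negative start per list was set to 0. Genes were autosomal protein-coding spans in RefSeq (GRCm38.p6); strand came from the promoter table. A peak touching the gene or its 2 kb flanks by 1 bp was counted; density used that length. Backgrounds were averages over other genes in classes of length (10) by local gene density (5), in the members' proportions. Alternatives changed the flank, score minimum, overlap and classes. Counting was tested on simulated peaks. Named members were the 5 densest per antibody, those without peaks or with at least 3 peaks of 1 antibody only, those with the top scores, and the longest and shortest. Values of Plxnd1, Sema5b, Sema4d, Sema4b, Sema4c, Plxna2, Plxnc1, Nrp1 and Nrp2 beyond their counts were added after values were seen, as were the flank, 1 Mb and gene body comparisons and the handling of ties in the classes. Members and lists were chosen with earlier results of these data known. Python 3.11.15, pandas 2.3.3 and scipy 1.17.1 were used.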

Additional observations from a re-analysis of the deposited data

How the results depend on the processing

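No paired analysis was possible because each antibody has 1 peak list without values per library; for the same reason no library could be left out. Of 98 alternative values for 19 results, 73 stayed within their limit, 18 moved further and 7 changed direction. The limit was 1.5 times for counts of genes and background densities, 10 points for differences of shares and background shares, and the 95% counting interval for other values.

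Members minus other genes of their classes, in points of the share with a peak, turned to 7.13 for H1foo and 7.68 for AE4 with scores of 100 or more, and to 3.23 and 10.2 without classes. Member peaks over those of other genes turned, for AE4, to 1.22 times with scores of 100 or more, 1.064 with length tertiles by density deciles and 1.397 without classes. For H1foo they were 1.81, 1.55 and 1.93 times in these settings. With the 200 nearest genes by rank of length and density, an alternative chosen after seeing the data, they were 1.44 times for H1foo and 0.978 for AE4.

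With scores of 100 or more, AE4 was present at 8 members (a background of 14.5% in other genes), both antibodies at 8 (13%) and H1foo alone at 6 (21.5%). Densities were then 2.03 H1foo and 0.3502 AE4 peaks per 100 kb and the ratio 5.79, and 1 member had an AE4 peak at an end (6.58% of other genes). The ratio of other genes was also higher at this limit than with all peaks. With flanks of 10 kb, H1foo alone was present at 1 member (14% of other genes) and H1foo density was 6.03. With 1 kb at the ends, 4 members had an AE4 peak (16.6% of other genes). The shared part of member H1foo peaks was 16.02% when 50% had to be covered and 13.6% when both lists were limited to scores of 100 or more. The unknown depth limits every absence of a peak.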

Other observations

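Other families of guidance genes, taken as lists by name, were set against other genes of their own length and density classes. Neither antibody had a peak at 3 of 21 ephrin and Eph genes (14.3%, against 19.8% in their classes), 2 of 12 netrin, Dcc, Neo1 and Unc5 genes (16.7%, against 16.5%) and 1 of 7 Slit and Robo genes (14.3%, against 18.5%). The differences between families were not tested. Ephrins and Eph receptors, cues and receptor kinases that act between touching cells, had an H1foo peak at 15 of 21 genes (71.4%, against 74.5%) and an AE4 peak at 15 (71.4%, against 63.5%). They had 150 H1foo and 49 AE4 peaks, where other genes of their classes would have 103.7 and 50.3, a ratio of H1foo to AE4 of 3.06. Ephb2 alone had 61 H1foo and 22 AE4 peaks, and Epha2 had 18 H1foo peaks and 1 AE4 peak. Epha3, Epha7 and Efna5 had 0 peaks of either antibody.

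Netrins with their receptors Dcc, Neo1 and the Unc5 proteins had an H1foo peak at 9 of 12 genes (75.0%, against 76.6%) and an AE4 peak at 7 (58.3%, against 68.3%). Their 71 H1foo and 27 AE4 peaks stood against 76.4 and 36.7 in other genes of their classes. Ntn1 had 24 H1foo and 13 AE4 peaks, whereas its receptor gene Dcc, 1098 kb long, had 0 and 0. Slits and Robos had an H1foo peak at 6 of 7 genes (85.7%, against 74.003%) and an AE4 peak at 6 (85.7%, against 68.3%), with 36 H1foo and 18 AE4 peaks against 48.9 and 24.3. The very long Robo2 had 1 H1foo peak and 3 AE4 peaks, and Slit2 had 0 and 0.

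The X-linked plexin genes, outside the autosomal family described above, had 1 H1foo peak and 0 AE4 peaks at Plxnb3 and 0 and 0 at Plxna3. With them the family would number 31 genes.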
